A study of Mus musculus with 2 samples.

Results

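The 10 genes described here are the D-type cyclins Ccnd1, Ccnd2 and Ccnd3, the E-type cyclins Ccne1 and Ccne2, the cyclin-dependent kinases Cdk4 and Cdk6, and the CDK inhibitors Cdkn1b, Cdkn2a and Cdkn2c. They were taken by symbol from the 32285 genes of the deposited tables and followed through the germ cells and somatic cells of the mouse testis at postnatal day 7 (PD7). The data were 2 single-cell RNA libraries, 1 from a control mouse and 1 from a Brca1 vKO mouse, in which BRCA1, a protein of DNA double-strand break repair, is lost from germ cells. The Brca1 vKO mouse carried 1 floxed and 1 deleted Brca1 allele and Vasa-Cre (Brca1 f/- Vasa-Cre), a recombinase driven in germ cells from before birth, so its somatic cells also carried the deleted allele. The control was a littermate whose exact genotype was not given in the sources used here, and both libraries came from cells released from the testes with collagenase IV and TrypLE Express.

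A cell leaves G1 phase when D-type cyclins activate CDK4 or CDK6, which phosphorylate the retinoblastoma protein and its relatives and so free the E2F transcription factors. E2F factors then turn on genes of S phase, the E-type cyclins among them, and cyclin E with CDK2 carries the cell into DNA replication. Inhibitors of the INK4 family (products of Cdkn2a, Cdkn2b, Cdkn2c and Cdkn2d) bind CDK4 and CDK6, and those of the CIP/KIP family (Cdkn1a, Cdkn1b and Cdkn1c) bind cyclin-CDK complexes more widely. In the testis after birth, Sertoli cells still divide, undifferentiated spermatogonia self-renew or become KIT-positive differentiating spermatogonia, and p27, the product of Cdkn1b, is known as a marker of Sertoli cells that stop dividing.

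Cell classes were taken from marker genes, and neither the 10 genes nor a list of cell cycle genes was used to cluster the cells. Of 13789 cells kept, 12691 (92.0%) fell into the classes used. Germ cells were split by the UMIs (distinct RNA molecules) of Gfra1 and Ret, receptor genes of undifferentiated spermatogonia, against those of Kit and Stra8, genes of differentiating spermatogonia. In the control and Brca1 vKO libraries, respectively, there were 348 and 192 GFRA1-type spermatogonia, 235 and 7 KIT-type spermatogonia, 2007 and 4136 Sertoli cells, 911 and 2152 stromal cells, 558 and 1426 myoid cells, and 46 and 118 Leydig cells. Germ cells that fitted neither pattern (68 and 17) were kept apart. So were 411 and 59 barcodes of low RNA content with germ markers (2053 and 1957 CPM), nearly all from a cluster of 400 and 55 barcodes that the naming rule left unnamed because haemoglobin genes led it. A level is the gene's UMIs per 1000000 UMIs (CPM) in the summed cells of a class. With 1 library and 1 mouse per genotype no test between genotypes was possible, so each value is given in both libraries with an exact 95% interval that covers counting error only. Genotype, mouse and library cannot be told apart, and how well the tail or head of each transcript was captured also enters any comparison between genes.

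The libraries held 5812 and 9456 barcodes and 120568700 and 165062097 UMIs. They shared 21 barcodes, 16 of them among kept cells. Among the 6 classes, median UMIs per cell were highest in germ cells (45858 and 37096 in GFRA1-type, 51884 and 44385 in KIT-type) and lowest in myoid cells (13564 and 9843). Germ markers summed to at most 34 CPM in any somatic class. Sertoli markers reached 188 and 236 CPM in GFRA1-type cells and 302 and 87.4 CPM in KIT-type cells. They reached 496 and 618 CPM in stromal cells and 1177 and 719 CPM in Leydig cells, against 4418 and 4298 CPM in Sertoli cells. The part of such Sertoli RNA in low germ cell levels, as those of Cdkn1b and Cdkn2c, was not tested. Nor was its part in Leydig cell levels and shares, as those of Ccnd2, Cdk6 and Cdkn1b. Most of the Sertoli RNA of the stromal class lay in 1 of its 3 clusters (60 and 189 cells), where Sertoli markers stood at 2725 and 2856 CPM and 95% and 91.5% of cells were marked as doublets, so stromal results are also given without it. Brca1 was at 68.4 CPM (64.5 to 72.4) in control and 42.7 CPM (38.2 to 47.5) in Brca1 vKO GFRA1-type cells, but these counts can come from outside the deleted exons and do not check the deletion.

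**Figure D1:**
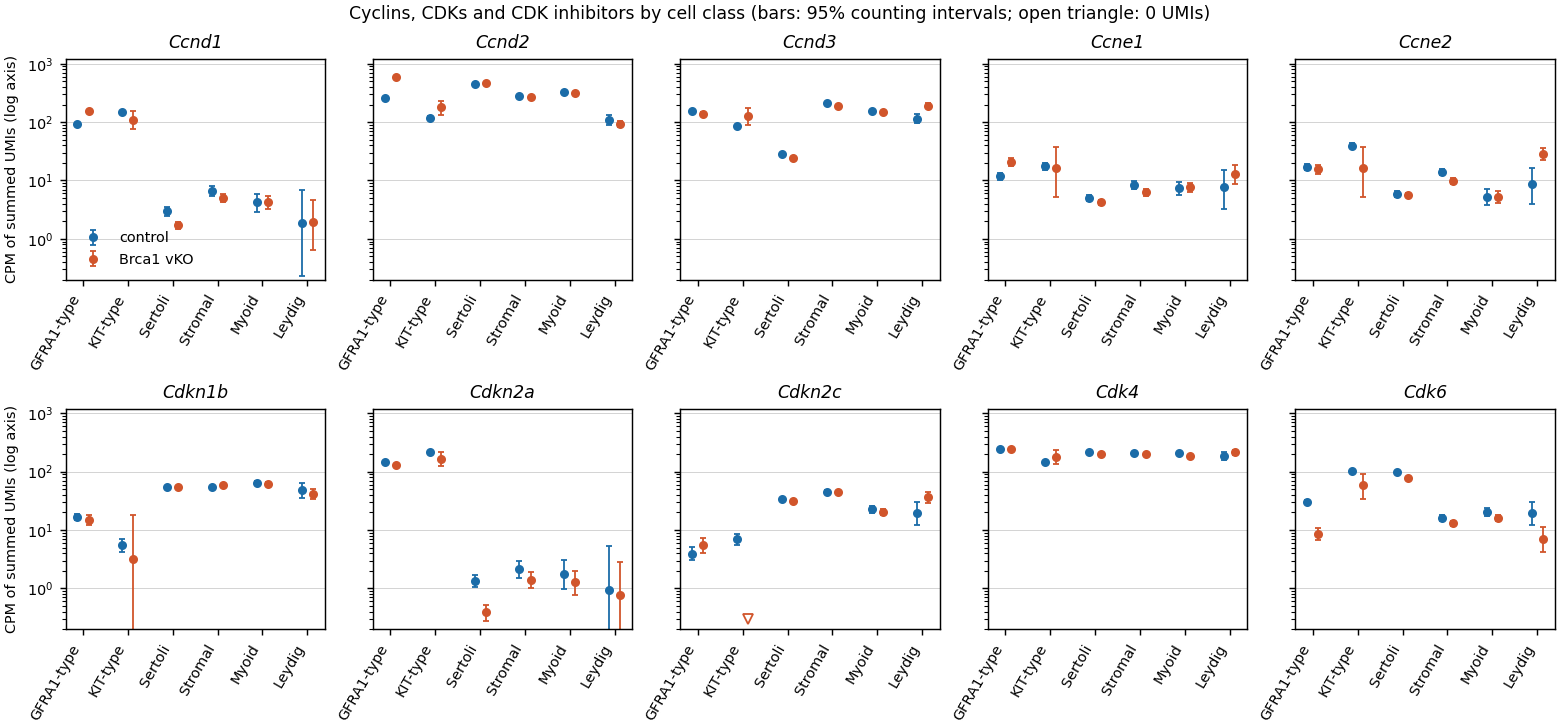
Level of each of the 10 genes (a panel each) in CPM on a log axis, by cell class and library, with bars for the exact 95% counting interval and an open triangle where no UMI was found. Ccnd1 and Cdkn2a stand above 90 CPM in both germ classes and below 7 CPM in all 4 somatic classes.

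The D-type cyclins divided the testis into classes with different makeups. Sertoli cells carried almost only Ccnd2, stromal and myoid cells carried Ccnd2 and Ccnd3, and germ cells carried all 3. Of the D-type cyclin UMIs in Sertoli cells, Ccnd2 made up 93.4% (93.1 to 93.7) in the control and 94.8% (94.6 to 95) in the Brca1 vKO library. Its share was 56.0% and 58.0% in stromal cells, 68.0% and 67.2% in myoid cells, and 51.0% (49.9 to 52.1) and 67.4% (66.3 to 68.5) in GFRA1-type cells. Although the makeup differed, the 3 genes summed to similar levels in several classes, 473 and 499 CPM in Sertoli, 499 and 470 CPM in stromal and 489 and 467 CPM in myoid cells. Control GFRA1-type cells lay at the same height with 498 CPM, control KIT-type cells lower with 354 CPM, and Brca1 vKO GFRA1-type cells higher than all of these with 891 CPM. Leydig cells had the lowest sums, 225 and 286 CPM.

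**Figure D2:**
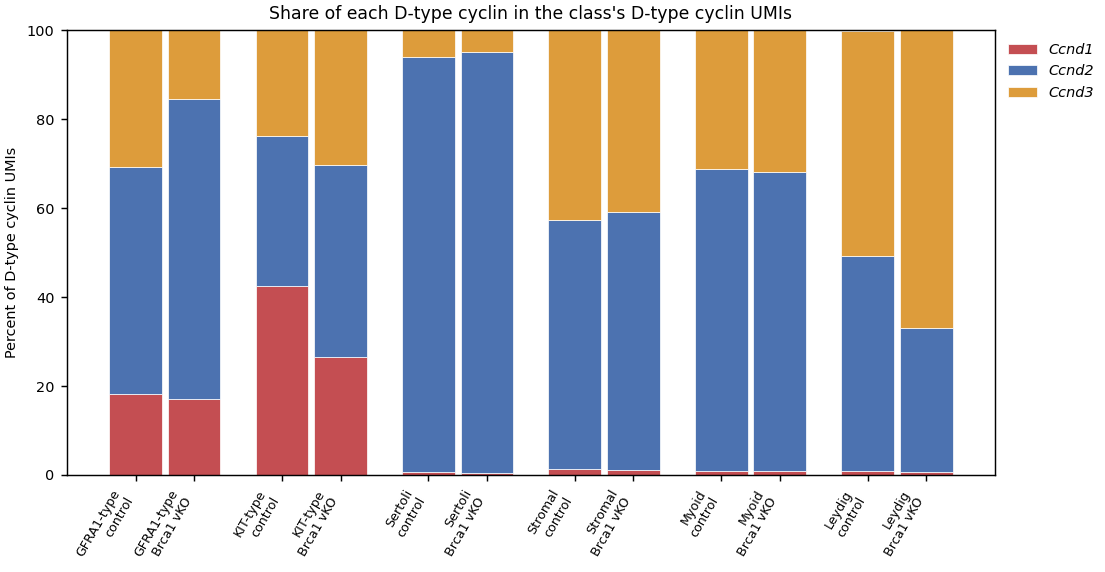
Stacked bars of the percent of D-type cyclin UMIs that came from Ccnd1, Ccnd2 and Ccnd3, by class and library (left bar control, right bar Brca1 vKO). Ccnd1 takes a visible share in GFRA1-type and KIT-type cells only, and Ccnd2 fills 93.4% and 94.8% of the Sertoli bars. The Brca1 vKO KIT-type bar rests on 128 UMIs from 7 cells.

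Ccnd2 (chr6:127125162-127152193, minus strand) encodes cyclin D2, whose loss in mice is known to reduce the gonads. In the control library it was highest in Sertoli cells (442 CPM), followed by myoid (332 CPM), stromal (279 CPM) and GFRA1-type cells (254 CPM, 246 to 262), and lowest in KIT-type (119 CPM) and Leydig cells (109 CPM, 89.9 to 131). The intervals of KIT-type and Leydig cells overlapped. Those of stromal and GFRA1-type cells did so once the cluster rich in marked doublets was left out, when control stromal cells stood at 258 CPM (250 to 266). In the Brca1 vKO library the somatic order was the same, at 473, 314, 272 and 92.7 CPM in Sertoli, myoid, stromal and Leydig cells, but GFRA1-type cells stood first with 601 CPM (584 to 618). Leydig cells held Sertoli markers at 26.7% and 16.7% of the Sertoli cell level, and the part of Sertoli RNA in their Ccnd2 was not tested.

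Ccnd1 (chr7:144929931-144939925, minus strand), the gene of cyclin D1, was a germ cell transcript among the 6 classes. It stood at 91.2 CPM (86.7 to 95.9) and 152 CPM (143 to 161) in GFRA1-type cells and at 150 CPM (144 to 157) in control KIT-type cells. Somatic levels ran from 1.71 CPM in Brca1 vKO Sertoli cells to 6.66 CPM in control stromal cells. Germ RNA free in the suspension can give such low counts, and Ccnd1 in Sertoli cells reached 2.63% and 1.13% of its germ cell level while Dazl, a germ cell gene that Sertoli cells should lack, reached 0.778% and 0.235%. In stromal cells the Ccnd1 percentages were 5.93% and 3.36% and those of Dazl 0.720% and 0.195%, so the somatic Ccnd1 counts were above the level that Dazl gives. With every cell thinned to 5000 UMIs, 35.6% and 52.1% of GFRA1-type cells had a Ccnd1 UMI, against 1.42% and 1.22% of Sertoli cells, in which 3.35% and 1.39% had a Dazl UMI.

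Ccnd3 (chr17:47505051-47599691, plus strand), the gene of cyclin D3, set Sertoli cells apart from the other somatic classes. It was at 213 and 192 CPM in stromal cells, 152 and 149 CPM in myoid cells and 153 and 138 CPM in GFRA1-type cells, but at only 28.2 and 24.3 CPM in Sertoli cells. Stromal over Sertoli cells, the ratio of levels was 7.57 and 7.93, and it pointed the opposite way for Ccnd2 (0.633 and 0.576). Leydig cells stood at 115 CPM (95.1 to 137) and 192 CPM (175 to 209), and Ccnd3 made up 50.8% (44.3 to 57.4) and 66.9% (63.4 to 70.3) of their D-type cyclin UMIs. That lead depended on how Leydig cells were defined, since with classes taken from the marker UMIs of each cell the Ccnd3 share was 39.1% and 39.6% and Ccnd2 led.

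KIT-type spermatogonia of the control testis had a different D-type cyclin makeup from GFRA1-type cells. Ccnd1 was the largest part with 42.5% (41.0 to 43.9), ahead of Ccnd2 with 33.7% (32.3 to 35.1) and Ccnd3 with 23.9% (22.6 to 25.2), while in control GFRA1-type cells the order was Ccnd2, Ccnd3 and Ccnd1 with 51.0%, 30.7% and 18.3%. KIT-type over GFRA1-type, the ratio of levels was 1.65 (1.54 to 1.77) for Ccnd1, 0.470 for Ccnd2 and 0.555 for Ccnd3. The Ccnd1 share in KIT-type cells was 46.0% without cells marked as doublets and 52.3% where germ classes came from sub-clusters. The Brca1 vKO library had 7 KIT-type cells, whose 128 D-type cyclin UMIs gave Ccnd1 26.6% (19.1 to 35.1) and Ccnd2 43.0% (34.3 to 52.0).

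CDK4 and CDK6 are the kinase partners of the D-type cyclins. Cdk4 (chr10:127063534-127067920, plus strand) was the most even of the 10 genes, between 147 CPM in control KIT-type cells and 248 CPM in control GFRA1-type cells, with all 4 somatic classes of both libraries between 186 and 221 CPM. Cdk6 (chr5:3341485-3531008, plus strand) was uneven. It stood at 103 CPM in control KIT-type cells, 97.7 and 78.3 CPM in Sertoli cells and 29.9 CPM (27.4 to 32.6) in control GFRA1-type cells, and between 7.01 and 20.7 CPM in myoid, stromal and Leydig cells. In stromal cells it was at 16.2 and 13.1 CPM, and at 5.68 and 6.05 CPM without the cluster rich in marked doublets, where it was at 74.6 and 46.1 CPM. Cdk4 exceeded Cdk6 in every class, but by little in KIT-type cells (147 against 103 CPM) and by much in GFRA1-type cells (248 against 29.9 CPM in the control). KIT-type over GFRA1-type, the Cdk6 ratio of 3.43 (3.10 to 3.81) was the largest among the 10 genes, and Cdk4 lay at 0.593.

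The genes that encode cyclin E were low in whole classes. Ccne1 (chr7:38097984-38107534, minus strand) ran from 4.23 CPM in Brca1 vKO Sertoli cells to 20.5 CPM in Brca1 vKO GFRA1-type cells. Ccne2 (chr4:11191351-11204779, plus strand) was highest in control KIT-type cells with 39.5 CPM (36.1 to 43.1), where it exceeded Ccne1 (17.5 CPM), and it was at 17.1 and 15.6 CPM in GFRA1-type and 5.95 and 5.6 CPM in Sertoli cells. In Sertoli and stromal cells their levels differed with the cycling state, as described further on.

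Germ and somatic cells carried RNA of different CDK inhibitor genes. Cdkn2a is counted among these genes, although its UMIs cannot tell p16Ink4a, an INK4 inhibitor, from p19Arf, its other product. Of the UMIs of Cdkn1b, Cdkn2a and Cdkn2c together, Cdkn2a made up 87.8% and 86.4% in GFRA1-type cells and 94.5% in control KIT-type cells. In the 4 somatic classes it made up between 0.445% and 2.11%, and there Cdkn1b was the largest part in both libraries, with 61.5% and 63.4% in Sertoli, 53.5% and 56.1% in stromal, 72.4% and 74.2% in myoid and 69.9% and 52.9% in Leydig cells. Cdkn2c was the next with 37.0% and 36.2% in Sertoli cells and 44.4% and 42.5% in stromal cells.

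Cdkn2a lies on mouse chromosome 4 (chr4:89274471-89294653, minus strand) and encodes 2 proteins from separate first exons, p19Arf, which restrains MDM2 and so stabilises p53, and p16Ink4a, an INK4 inhibitor. In the annotation used here the first exons, of 320 bases for the upstream transcript and 207 bases for the downstream one, share no base, while exon 2 (341 bases) and 234 bases of exon 3 are common to both, so the gene's UMI counts cannot tell the products apart. The bases before each start are shown because the 2 products have separate starts. Sequences are from RefSeq on GRCm38.p6, written 5′ to 3′ along the minus strand, and capitals mark the 8-letter E2F word that was found.

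The first line is the untranscribed stretch upstream of the p19Arf start (chr4:89294654-89294869), and the second is the stretch upstream of the p16Ink4a start (chr4:89282193-89282442).
p19Arf start: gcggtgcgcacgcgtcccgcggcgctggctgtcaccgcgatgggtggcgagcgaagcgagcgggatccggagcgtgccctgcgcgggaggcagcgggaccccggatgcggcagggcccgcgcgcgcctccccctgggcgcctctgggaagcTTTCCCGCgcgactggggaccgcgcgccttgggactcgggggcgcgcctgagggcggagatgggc
p16Ink4a start: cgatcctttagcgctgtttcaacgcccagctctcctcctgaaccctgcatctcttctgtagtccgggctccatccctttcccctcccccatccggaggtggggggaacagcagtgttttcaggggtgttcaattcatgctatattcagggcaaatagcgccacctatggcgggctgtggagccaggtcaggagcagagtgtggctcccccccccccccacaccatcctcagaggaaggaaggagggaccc

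The words searched on both strands of the 250 bases before each start were TTTCCCGC, TTTGGCGC, TTTCGCGC and TTTGCCGC. The p19Arf start held TTTCCCGC, in which TTCCCGC begins 98 bases upstream of the RefSeq start. The last 34 of its 250 bases are left out above since a GENCODE transcript begins there. The p16Ink4a start held none of the 4 words. Of 32851 starts in the table, 1.86% held at least 1 of the 4 words, as did 1 of the 10 starts that matched 7 of the 10 genes. With the same 4 words less their first T, which match wherever the longer ones do, 7.89% of all starts and 2 of the 10 held a match, the second being the upstream start of Cdkn2c. A match describes letters only and does not show that a factor binds.

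Cdkn2a stood at 148 CPM (143 to 154) and 129 CPM (121 to 137) in GFRA1-type cells and at 216 CPM (208 to 224) in control KIT-type cells. Somatic cells were far lower. Cdkn2a in Sertoli cells was at 1.35 and 0.387 CPM, or 0.769% and 0.297% of its germ cell level, beside 0.778% and 0.235% for Dazl. Whether these Sertoli counts came from free germ RNA was not tested. In stromal cells the values were 1.22% and 1.07% for Cdkn2a and 0.720% and 0.195% for Dazl, resting on 36 and 43 Cdkn2a UMIs, so Cdkn2a stood above the level that Dazl gives. The same held in the Brca1 vKO library for myoid cells (0.974% against 0.374%, 19 Cdkn2a UMIs). In the control library the myoid values were alike (1.03% and 0.956%). The summed germ markers gave a different order. They reached 1.57% of their germ cell level in Brca1 vKO stromal cells and 1.47% and 1.54% in myoid cells, above Cdkn2a in each. In control stromal cells the summed germ markers stood below Cdkn2a. Whether the stromal and myoid Cdkn2a counts came from free germ RNA was not tested. Leydig cells had 1 and 2 Cdkn2a UMIs, too few to set against Dazl. After thinning, 52.3% and 50% of GFRA1-type cells and 66.4% of control KIT-type cells had a Cdkn2a UMI, against 0.761% and 0.170% of Sertoli cells.

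Cdkn1b (chr6:134920401-134925513, plus strand), the gene of p27, showed the reverse. It was at 55.7 and 55.1 CPM in Sertoli, 54.3 and 58.3 CPM in stromal, 64.1 and 62.4 CPM in myoid and 48.3 and 42.1 CPM in Leydig cells, so that the 4 somatic classes differed little. Germ cells had less, 16.7 and 14.8 CPM in GFRA1-type cells and 5.46 CPM (4.25 to 6.91) in control KIT-type cells. KIT-type over GFRA1-type, the ratio was 0.326.

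Cdkn2c (chr4:109660876-109667189, minus strand) encodes p18, another INK4 inhibitor. It was highest in stromal cells (45.1 and 44.2 CPM), ahead of Sertoli cells (33.5 and 31.4 CPM) and myoid cells (22.6 and 20.4 CPM). Leydig cells, with 21 and 94 Cdkn2c UMIs among 1055638 and 2567109 UMIs, lay above Sertoli cells in the Brca1 vKO library only. Germ cells were low, at 3.96 and 5.50 CPM in GFRA1-type and 7.04 CPM in control KIT-type cells. The 7 Brca1 vKO KIT-type cells held 0 UMIs of Cdkn2c, which allows up to 11.9 CPM. The bases before the downstream of its annotated starts (chr4:109665373-109665622) are shown because Cdkn2c, of the inhibitors with at least 50 UMIs in the sums compared, differed with the cycling state in both Sertoli and stromal cells, and no E2F word lay in them.
Cdkn2c start: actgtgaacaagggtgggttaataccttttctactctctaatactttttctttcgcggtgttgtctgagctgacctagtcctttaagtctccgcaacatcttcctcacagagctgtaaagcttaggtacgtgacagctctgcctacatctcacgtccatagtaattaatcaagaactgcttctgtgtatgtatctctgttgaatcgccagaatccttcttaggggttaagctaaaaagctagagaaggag

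The other inhibitors of both families changed the picture in several classes. With Cdkn1a, Cdkn1c, Cdkn2b and Cdkn2d added, Cdkn1c, the gene of p57, made up 57.5% and 59.6% of inhibitor UMIs in stromal cells and 44.2% and 50.9% in Leydig cells, at 195 and 219 CPM and 90.9 and 125 CPM. Sertoli cells had almost none of it (1.81 and 1.83 CPM) and instead carried Cdkn2d, the gene of p19Ink4d, at 27.0 and 28.4 CPM beside Cdkn1b and Cdkn2c. In GFRA1-type cells Cdkn2a remained the largest part in the control with 56.1%, and in the Brca1 vKO library Cdkn2a and Cdkn1a, the gene of p21, were about equal with 39.3% and 39.8%. Cdkn2b, the INK4 gene beside Cdkn2a, was at 10.1 and 7.80 CPM in GFRA1-type cells.

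**Figure D3:**
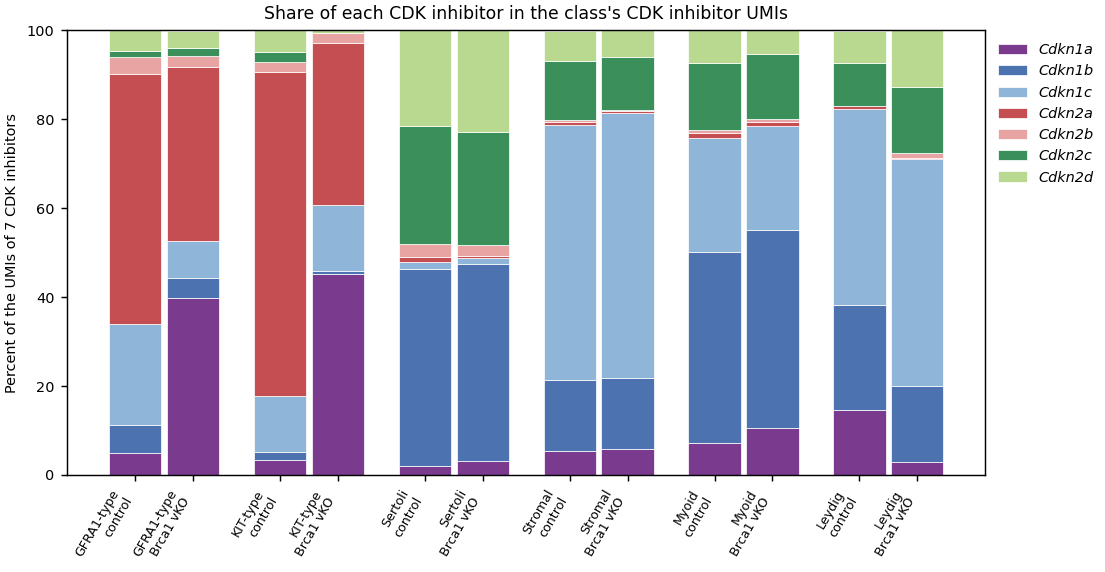
Stacked bars of the percent of UMIs of the 7 CDK inhibitor genes that came from each gene, by class and library (left bar control, right bar Brca1 vKO). Cdkn2a fills 56.1% and 39.3% of the GFRA1-type bars and is hardly visible in the 4 somatic classes, where Cdkn1b or Cdkn1c is the largest part.

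The targets of the D-type cyclin kinases also differed between classes. Rb1, the retinoblastoma gene, was at 130 and 127 CPM in GFRA1-type cells, 61.1 and 65.9 CPM in Sertoli cells, 31.6 and 26.9 CPM in stromal cells and 32.5 and 29.1 CPM in myoid cells. Rbl1, the gene of p107, was at 28.8 and 26.2 CPM in GFRA1-type and 24.1 and 23.4 CPM in Sertoli cells. Rbl2, the gene of p130, which is known from resting cells, was lower in GFRA1-type cells (5.08 and 5.50 CPM) than in Sertoli (22.7 and 23.3 CPM) and stromal cells (30 and 30.4 CPM). Cdk2, the partner of cyclin E, was at 18.9 and 16.2 CPM in GFRA1-type cells, 33.1 CPM in control KIT-type cells and 34.8 and 31.3 CPM in Sertoli cells.

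For GFRA1-type over Sertoli cells, 5 of the 10 genes were past 1.5-fold higher in both libraries (Ccnd1, Ccnd3, Ccne1, Ccne2 and Cdkn2a) and 3 lower (Cdkn1b, Cdkn2c and Cdk6). Among all 14742 genes with at least 50 UMIs, 60.9% were past 1.5-fold in the same direction in both libraries, so the 8 of 10 is read against a high background. The median log2 ratio over all genes was 0.20 for control and 0.10 for Brca1 vKO. Of the 31 other genes of the G1/S pathway list that could be compared, 14 were past the fold higher and 5 lower. The ratio was 30.9 and 89.0 for Ccnd1, and Ccnd2 was on opposite sides of 1 in the libraries, 0.575 in the control and 1.27 in Brca1 vKO. For KIT-type over GFRA1-type cells in the control, 4 of the 10 were higher (Ccnd1, Ccne2, Cdkn2c and Cdk6) and 4 lower (Ccnd2, Ccnd3, Cdkn1b and Cdk4), beside 30.4% of 14060 genes in either direction, and of 30 pathway genes 4 were higher and 2 lower. Cdk2 was among the higher pathway genes (1.75), and Cdkn1c (0.620) and Cdkn2b (0.634) were the lower ones.

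To ask which of these genes follow cell division within a class, cells with 2 or more UMIs of Mki67 and Top2a, genes of dividing cells, were set against cells with none. Cycling cells by this rule were 86.8% and 84.9% of GFRA1-type cells, 98.7% of control KIT-type cells, 31.9% and 33.8% of Sertoli cells, 19.8% and 15.2% of stromal cells and 9.50% and 10.3% of myoid cells. The rule favours deep cells, and in Sertoli cells the median was 28305 and 26778 UMIs in cycling against 16738 and 13032 UMIs in non-cycling cells. At an equal 5000 UMIs per cell, 68.7% and 72.4% of GFRA1-type cells and 29.9% and 32.7% of Sertoli cells had at least 1 UMI of the pair. Only 19 and 21 GFRA1-type cells and 1 and 0 KIT-type cells were non-cycling, so the germ cells were compared with less precision.

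In Sertoli cells the D-type cyclins hardly differed with the cycling state, and the E-type cyclins and Cdkn2c did. Cdkn2c was at 62.4 and 52.0 CPM in cycling against 7.77 and 8.64 CPM in non-cycling Sertoli cells, a ratio of 8.03 (6.86 to 9.45) and 6.03 (5.36 to 6.80). Ccne1 had ratios of 4.30 and 3.28 and Ccne2 of 4.80 and 4.0. Ccnd2 was slightly lower in cycling cells (0.835 and 0.867), Ccnd3 (0.972 and 1.02) and Cdk4 (0.993 and 0.964) were near 1, and Cdk6 (1.21 and 1.31) and Cdkn1b (1.24 and 1.18) were slightly higher. The makeup of the 3 inhibitors thus changed with the state, from Cdkn1b with 85.4% and 84.9% and Cdkn2c with 13.4% and 14.5% in non-cycling Sertoli cells to 48.8% and 53.0% and 49.6% and 46.5% in cycling ones. Ccne1, Ccne2 and Cdkn2c were past 1.5-fold higher in both libraries, 3 of 9 genes compared, and 0 were lower, beside 6.34% higher and 0.793% lower among 13117 genes. Cdkn2a was at 1.96 and 0.512 CPM in cycling against 0.674 and 0.334 CPM in non-cycling Sertoli cells. Its ratio was 2.91 (1.60 to 5.58) on 49 and 15 UMIs in the control. In Brca1 vKO it was 1.53 (0.750 to 3.32) on 27 and 12 UMIs. Dazl in the same cells was at 9.67 and 2.18 CPM against 7.05 and 2.51 CPM.

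Stromal cells gave a similar result for the E-type cyclins and Cdkn2c. Cdkn2c was at 116 and 134 CPM in cycling against 16.8 and 19.5 CPM in non-cycling cells, a ratio of 6.91 (5.81 to 8.24) and 6.87 (6.10 to 7.76), and it made up 63.4% and 63.8% of the 3 inhibitors in cycling against 24.2% and 26.2% in non-cycling cells. Ccne1 had ratios of 8.5 and 7.02 and Ccne2 of 10.7 and 12.1. Unlike in Sertoli cells, the D-type cyclins were lower in cycling stromal cells, with ratios of 0.671 and 0.638 for Ccnd2 and 0.574 and 0.676 for Ccnd3, and the 3 D-type cyclins summed to 352 and 333 CPM in cycling against 561 and 508 CPM in non-cycling cells. Cdk4 lay at 1.40 and 1.35 and Cdkn1b at 1.18 and 1.29. Cdkn2a, on under 50 UMIs, was at 5.67 and 5.63 CPM in cycling against 0.582 and 0.251 CPM in non-cycling stromal cells, a ratio of 9.74 (3.94 to 28.9) and 22.4 (8.82 to 73.1). Dazl in the same cells was at 11.6 and 1.48 CPM (55 and 10 UMIs) against 6.70 and 2.06 CPM (69 and 41 UMIs). The part of free germ RNA in the Cdkn2a difference was not tested. Including Cdk6 (2.08 and 1.91), 4 of 9 genes were past the fold higher and 0 lower in both libraries, beside 13.3% higher and 4.91% lower among 11855 genes.

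The cluster rich in marked doublets moved several of these stromal values. Without it the Ccnd2 ratio was 0.423 and 0.465, and Ccnd3 exceeded Ccnd2 in cycling stromal cells, with 160 CPM (147 to 175) against 128 CPM (116 to 141) in the control and 166 CPM (155 to 178) against 131 CPM (121 to 141) in the Brca1 vKO library. With it the order was the reverse, Ccnd2 at 207 and 186 CPM and Ccnd3 at 141 and 142 CPM. The Cdk6 ratio without it was 0.797 (0.428 to 1.41) and 1.61 (1.09 to 2.35), so in the control its direction turned. The ratios of Ccne1 (11.2 and 7.79), Ccne2 (14.3 and 14.9) and Cdkn2c (8.35 and 8.11) stayed far above 1, as did that of Cdkn2a (15 and 24.3).

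**Figure D4:**
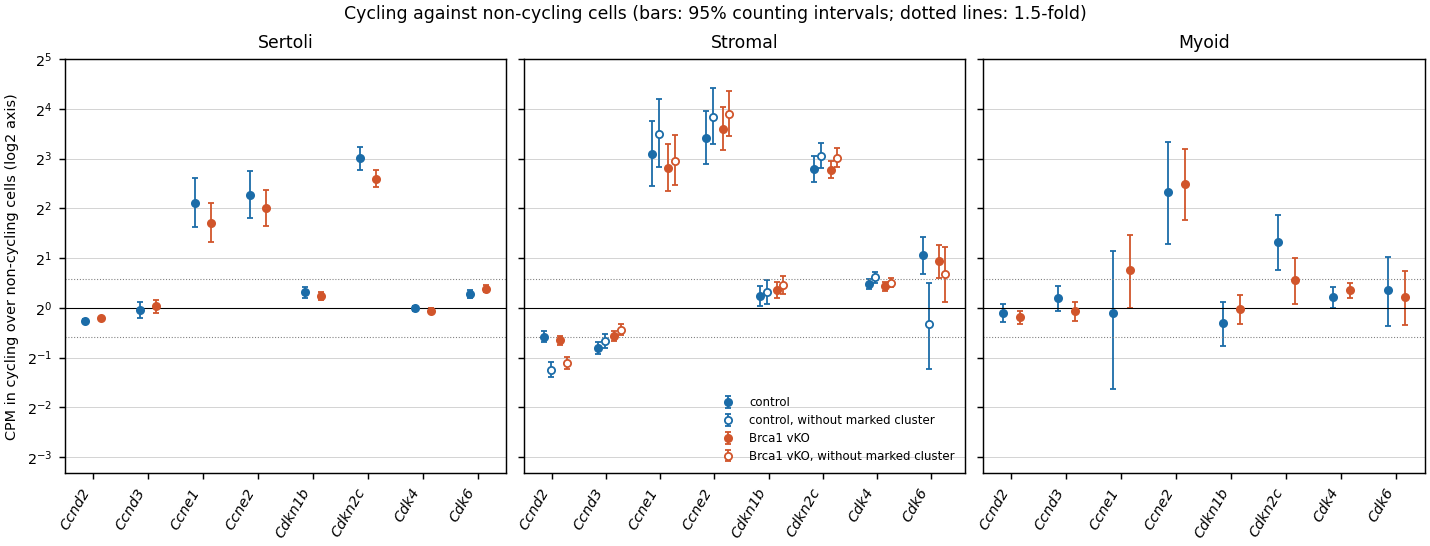
Ratio of the CPM in cycling cells to that in non-cycling cells of the same class, on a log2 axis, for the members in Sertoli, stromal and myoid cells, with bars for the 95% counting interval and dotted lines at 1.5-fold. In Sertoli and stromal cells Ccne1, Ccne2 and Cdkn2c stand above the upper line, and open symbols give the stromal values without the cluster rich in marked doublets.

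Myoid cells had few cycling cells, 53 and 147, and Cdkn2c differed less there, 2.52 (1.70 to 3.67) and 1.47 (1.06 to 1.99). Both E-type cyclins had fewer than 50 UMIs in the control sums. Ccne2 gave 4.99 (2.42 to 10.1) and 5.59 (3.39 to 9.19), and Ccne1 gave 0.936 (0.324 to 2.22) and 1.69 (1 to 2.75), so a difference in Ccne1 was not detectable at this depth in the control. Ccnd2 was near 1 (0.937 and 0.878). Of 6 genes compared 0 were past the fold in both libraries, beside 3.11% higher and 0.50% lower among 9396 genes. In Leydig cells of the Brca1 vKO library, 26 cycling against 74 non-cycling cells gave a Cdkn2c ratio of 3.68 (2.33 to 5.93), and only 4 control Leydig cells were cycling, where Ccne2 gave 0.922 on 8 UMIs. In GFRA1-type cells the non-cycling sums held between 2 and 6 UMIs of each E-type cyclin. Ccne1 gave 3.58 (0.977 to 29.8) and 2.53 (1.14 to 7.02) and Ccne2 3.44 (1.17 to 16.8) and 2.35 (0.979 to 7.38), so 2 of the 4 intervals included 1, while Ccnd2 gave 1.01 and 0.790.

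Other genes of the pathway moved with the cycling state in the same comparison. Of 31 genes compared in Sertoli cells 13 were past the fold higher in cycling cells of both libraries and 0 lower, of 30 in stromal cells 17 and 0, and of 23 in myoid cells 7 and 0. Over all genes compared, 6.34%, 13.3% and 3.11% were higher and 0.793%, 4.91% and 0.50% lower in the same order. The split itself used Mki67 and Top2a, genes of dividing cells, so these counts are descriptions. Ccna2, E2f1, E2f3, Skp2 and Cks1b were higher in all 3 classes. Ccna2, the cyclin A2 gene of S and G2 phase, gave 34.2 and 29.4 in Sertoli, 79.8 and 88.9 in stromal and 15 and 11.2 in myoid cells. E2f1, the gene of an activating E2F factor, gave 2.96 and 2.35 in Sertoli, 2.21 and 1.82 in stromal and 3.45 and 3.33 in myoid cells. Skp2, whose product together with that of Cks1b marks p27 for degradation, gave 1.99 and 1.97, 3.99 and 3.66, and 2.77 and 2.60 in the same order. Cdkn2d, the other INK4 gene of Sertoli cells, gave 1.73 and 1.69 there and 3.79 and 4.34 in stromal cells.

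Between the genotypes, GFRA1-type spermatogonia differed most in Ccnd2 and Cdk6. Ccnd2 was at 254 CPM in control and 601 CPM in Brca1 vKO cells, for a ratio of 2.37 (2.27 to 2.47), and the interquartile ranges of single cells did not overlap, with an upper quartile of 359 CPM in the control and a lower quartile of 421 CPM in Brca1 vKO. Ccnd1 gave 1.67 (1.54 to 1.80) and Ccne1 1.74 (1.40 to 2.15), while Ccnd3 (0.908), Ccne2 (0.913), Cdk4 (0.967), Cdkn1b (0.887) and Cdkn2a (0.867) were within 1.5-fold. Cdk6 was at 29.9 CPM in control and 8.69 CPM (6.75 to 11) in Brca1 vKO, a ratio of 0.291 (0.222 to 0.375). Thus 3 of 10 genes were past 1.5-fold higher and 1 lower, beside 20.7% of 13485 genes past it in either direction, and the 4 of 10 is read against that share. Doublets were marked among 6.32% of control and 13.0% of Brca1 vKO GFRA1-type cells, and without them the ratios were 2.41 for Ccnd2 and 0.224 for Cdk6. The Cdk6 ratio was 0.437 with a mitochondrial limit of 5% and 0.153 with germ classes from sub-clusters, below 1 in each.

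Ccnd2 was higher in the Brca1 vKO library in the other germ cells too. Its ratio was 4.09 (3.54 to 4.72) in germ cells of neither pattern. In the barcodes of low RNA content with germ markers it was 2.76 (2.30 to 3.31). Cdk6 was lower in both, with 0.251 and 0.114. These ratios rest on only 11 and 1 Cdk6 UMIs in Brca1 vKO, against 174 and 60 UMIs in the control. The GFRA1-type cells of the libraries differed in their marker level, and 195 of 348 control and 144 of 192 Brca1 vKO cells had at least 300 CPM of Gfra1 and Ret. Within that part Ccnd2 was at 323 and 597 CPM, a ratio of 1.85, and between 100 and 300 CPM of the markers at 213 and 644 CPM (96 and 42 cells). Cdk6 in the same parts was at 14.1 and 5.12 CPM and at 35.1 and 17.8 CPM. In the control, Ccnd2 thus had higher values and Cdk6 lower values in cells with more Gfra1 and Ret. The libraries differed in both genes within each of these broad marker ranges. Whether the makeup of cells within a range differed between the libraries was not tested.

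**Figure D5:**
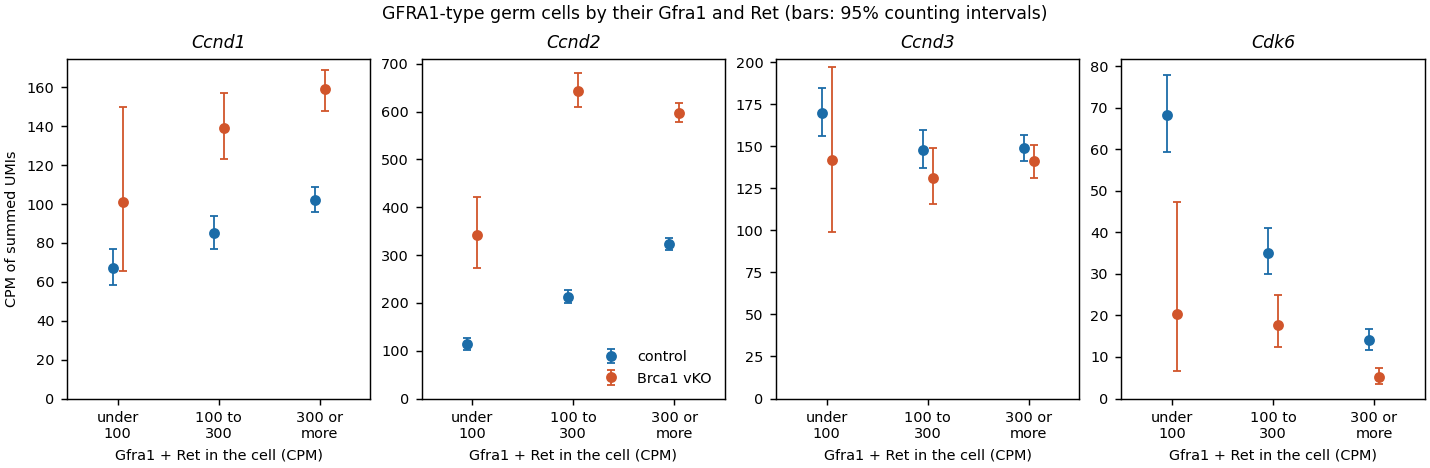
Level in CPM of the D-type cyclins and Cdk6 in GFRA1-type cells of each library, in 3 ranges of the cell's Gfra1 and Ret level (under 100, 100 to 300 and 300 or more CPM), with bars for the 95% counting interval. Ccnd2 is at 113, 213 and 323 CPM in control cells and at 341, 644 and 597 CPM in Brca1 vKO cells, whose first range holds 6 cells.

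Beyond the 10 genes, 3 of 30 pathway genes were past the fold higher in Brca1 vKO GFRA1-type cells and 2 lower, beside the 20.7% of all genes past it, so the list held no more such genes than that share gives. Cdkn1a, a p53 target, was at 13.1 CPM in control and 130 CPM in Brca1 vKO cells, for a ratio of 9.93 (8.58 to 11.5). It was also higher in the germ cells of neither pattern, 7.75 against 184 CPM. Cdkn1c was lower, 60 against 26.8 CPM, a ratio of 0.447 (0.384 to 0.520).

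Somatic cells differed less between the libraries. In Sertoli cells Ccnd2 gave 1.07 and Cdk6 0.801, and Ccnd1 (0.578) and Cdkn2a (0.288) were the 2 of 10 past the fold, both lower and both at under 3 CPM in these cells, beside 6.63% of all genes. In stromal cells 1 of 10, Cdkn2a at 0.655, was past the fold beside 4.83%, and in myoid cells 0 of 9 beside 5.77%. Dazl in Sertoli cells was at 0.778% and 0.235% of its germ cell level, and the part of such background in these ratios was not tested. In Leydig cells 3 of 6 were higher in Brca1 vKO (Ccnd3 1.67, Ccne2 3.34 and Cdkn2c 1.84), beside 15.8%. More of the Brca1 vKO Leydig cells were cycling, 22.0% against 8.70%, and among non-cycling Leydig cells Ccnd3 gave 1.83 (1.41 to 2.39) and Cdkn2c 0.987. Of the pathway genes, 0 of 31 were past the fold in Sertoli cells, 1 of 30 in stromal cells, 1 of 28 in myoid cells and 7 of 23 in Leydig cells.

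The genes whose level over 12 sums of class and cycling state was most like that of each member were looked up by the smaller of the Pearson correlations of log2(CPM + 10) in the 2 libraries. These sums share libraries and depth, so the values are descriptions. The sums held no KIT-type cells and no cycling Leydig cells. They did hold germ cells of neither pattern and the barcodes of low RNA content. For Ccnd1 the most alike genes were Rbmxl2 (0.995 and 0.997), Gtsf1 and Rec114, and for Cdkn2a Rbmxl2 (0.994 and 0.995), 1700018B24Rik and Smagp. For Ccnd3 they were Col13a1 (0.951 and 0.974), Slit3 and Nid2, for Cdk6 Slc11a2 (0.916 and 0.927), Ddah1 and Tbc1d30, and for Cdkn2c Arpin (0.903 and 0.923), Lockd and Cntln. The closest gene to Cdkn1b was Lysmd3 (0.977 and 0.965), to Cdk4 Srsf3 (0.887 and 0.889), to Ccne1 Nuf2 (0.845 and 0.830) and to Ccne2 Pimreg (0.831 and 0.869). Ccnd2 was the least like any other gene, with Prrx2 the closest at 0.772 and 0.825.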

How the data were processed

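Single-cell RNA was measured in 2 libraries, 1 per genotype, at PD7. The authors aligned reads to mm10 and counted UMIs per gene and barcode with Cell Ranger 6.0.2. The tables deposited by the authors hold these raw counts, unnormalized and before the study's cell filters. Whether transcripts were tagged at the 3′ or 5′ end was not given in the sources used here. All 6 files were read and 0 columns of samples were left unused.

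The study's filters of 750 genes or more and 10% mitochondrial UMIs or less were applied to each barcode. Log-normalized values of the 2000 most variable genes, without the members and a list of cell cycle genes, gave 20 components, which were corrected for library by Harmony's algorithm and clustered by Leiden (leidenalg 0.10.2, resolution 0.25) in Python 3.11.15 with Scanpy 1.11.5. Clusters were named from fixed markers with at least 3 detected. A cell with a germ name was GFRA1-type or KIT-type if it had 2 or more UMIs of one marker pair and at least 2-fold those of the other. Cells with 1 UMI of Mki67 and Top2a were in neither cycling state. Scrublet marked doublets, which were removed only in an alternative.

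UMIs were summed per class and library and divided by the sum's total. CPM was not scaled by transcript length, since each UMI tags 1 molecule. Intervals are exact Poisson, Clopper-Pearson and conditional ratio intervals at 95% (SciPy 1.17.1). Between libraries or classes, genes with at least 50 UMIs in the 2 sums were compared at 1.5-fold. All 10 members are named. Of 32 other G1/S genes, the text names the other inhibitors, the pocket proteins, Cdk2 and those past the fold with cycling in at least 3 classes. E2f1 and E2f3 and the rest of that last group are named by this rule. For each member the 3 most alike genes were found. Alternatives changed the mitochondrial limit, batch correction, variable genes, resolution, doublets, class rules, cycling rule, depth and scaling (TMM in edgeR 4.0.16). Scripts were tested on simulated data. The members and lists were chosen with earlier results of these data known.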

Additional observations from a re-analysis of the deposited data

Results flagged for a closer look

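Ccnd1 moved in opposite directions between the libraries in GFRA1-type and Sertoli cells, with Brca1 vKO over control ratios of 1.67 and 0.578. The Sertoli counts were 158 and 172 UMIs of Ccnd1, at 2.95 and 1.71 CPM. Cdkn1a also moved in opposite directions, at 9.93 in GFRA1-type and 0.231 in Leydig cells, the latter from 30.3 to 7.01 CPM. With 1 library per genotype neither difference was tested.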

How the results depend on the processing

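No paired analysis was possible because each genotype had 1 library, and for the same reason no library could be left out. With a mitochondrial limit of 5%, the Ccnd1 share in control KIT-type cells was 46.8%, the Ccnd2 share 53.0% in GFRA1-type, 91.7% in Sertoli and 52.1% in stromal cells, the Ccnd3 share in Leydig cells 61.7%, the GFRA1-type ratios 2.16 for Ccnd2 and 0.437 for Cdk6, and the Sertoli cycling ratio of Cdkn2c 9.53. Classes from germ sub-clusters gave 52.3%, 48.8%, 2.60 and 0.153 for the Ccnd1 share, the Ccnd2 share and the Ccnd2 and Cdk6 ratios. The Ccnd2 share in Sertoli and stromal cells was 92.7% and 51.9% without batch correction, 92.6% and 51.9% with all variable genes and 92.7% and 52.0% at a resolution of 0.5. Without marked doublets the Ccnd1 share in KIT-type cells was 46.0% and the Ccnd2 share in stromal cells 52.5%, and with classes from each cell's marker UMIs the latter was 54.0% and the Ccnd3 share in Leydig cells 39.1%. Cycling from 1 UMI gave Cdkn2c ratios of 6.68 in Sertoli and 5.35 in stromal cells, and all variable genes gave 8.51 in stromal cells. Added after seeing the data, leaving out the marked stromal cluster gave 51.9% and 8.35, and GFRA1-type cells with 300 or more CPM of the markers gave a Ccnd2 ratio of 1.85. Directions turned for Cdk6 with cycling in control stromal cells (0.843 at 5%, 0.826 without correction, 0.779 with all genes, 0.470 at a resolution of 0.5 and 0.797 without the marked cluster) and in control GFRA1-type cells (0.727 with cycling from 100 CPM), for Cdkn1b with cycling in Brca1 vKO GFRA1-type cells (0.791 after thinning) and for Cdkn2c between libraries in Leydig cells (0.861 at 5%). The cause was not tested. Without a minimum of UMIs, 11 of the 13 background shares moved by over 1.5 times, those between libraries to 44.1% in GFRA1-type, 30.8% in Sertoli and 31.7% in stromal cells. Over all values recomputed, those that moved by over 1.5 times numbered 33 with classes from marker UMIs, 28 at the 5% limit, 18 at a resolution of 0.5, 15 with cycling called after thinning, 12 with germ sub-clusters, 8 with cycling from 100 CPM, 6 each without batch correction and without marked doublets, 5 with cycling from 1 UMI, 4 each with all variable genes and without the marked stromal cluster, 2 with means over cells, 1 with GFRA1-type cells of 300 or more CPM, and 0 with TMM scaling and with low-RNA barcodes kept.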

Other observations

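Cell types with few cells had D-type cyclin makeups of their own. Endothelial cells (27 and 36) carried Ccnd1 at 228 and 186 CPM, above the germ classes, and it made up 52.5% and 43.6% of their D-type cyclin UMIs. Pericytes (47 and 69) had Ccnd1 at 147 and 62.8 CPM beside Ccnd2 at 278 and 251 CPM. Cdkn1b was at 58.9 and 58.2 CPM in endothelial cells and 76.3 and 108 CPM in pericytes, and Cdkn2a had 7 and 0 UMIs and 1 and 2 UMIs in them.

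The barcodes of low RNA content with germ markers (411 and 59) came nearly all from a cluster left unnamed because Hbb-bt, Hba-a1, Hba-a2 and Hbb-bs led it, and the sum of these haemoglobin genes was at 6455 and 169 CPM in them, against 283 and 39.6 CPM in GFRA1-type cells. They had a D-type cyclin makeup of Ccnd1 28.4% and 24.5%, Ccnd2 54.5% and 64.8% and Ccnd3 17.1% and 10.7%. Their D-type cyclins summed to 345 and 802 CPM. Cdkn1a was at 16.2 and 243 CPM in them.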
